A study of Mus musculus with 45 samples.

Results

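The 9 genes described here are regulators and matrix genes of the primitive endoderm (PrE): *Gata6*, *Sox17*, *Gata4*, *Sox7*, *Foxa2*, *Pdgfra*, *Dab2*, *Lama1* and *Col4a1*. They were chosen by symbol, each matched a single identifier, and they are 9 of the 55385 genes in the deposited RNA-seq tables. The study tested when the transcription factor GABPA acts in pre-implantation mouse embryos by degrading it in chosen time windows. All groups, controls included, carried the degron tag on both *Gabpa* alleles (Gabpa-dTAG/dTAG), so no library is from untagged embryos or cells. dTAG13 binds the tag and brings the fused protein to a ubiquitin ligase, which removes the protein but not its messenger RNA. Control groups received DMSO, the solvent of dTAG13.

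Embryos came from in vitro fertilisation and were cultured with 1 µM dTAG13. The late two-cell groups (3 libraries each) were treated from 6 h to 30 h post-fertilisation (hpf), the morula groups (2 each) from 42 hpf, and the E4.5 inner cell mass (ICM) groups (2 each) from 84 to 100 hpf. ICMs were isolated by immunosurgery, in which antibody and complement lyse the outer trophectoderm, so that a mixture of epiblast (EPI) and PrE cells is left. The 2iES groups (2 each) were mouse embryonic stem cells of a single tagged line kept in 2i/LIF medium, which holds them in the naive state, with 0.5 µM dTAG13 for 24 h. Total expected counts per library ranged from 20449966 to 23718870 in late two-cell embryos, 9457933 to 12382705 in morulae, 18266057 to 20818291 in ICMs and 20146785 to 27660132 in 2iES cells. The labels give replicate numbers but do not say that replicates came from separate pools of embryos or cultures, so p-values measure the spread between these libraries, which may be technical.

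The PrE is the layer of the late ICM that faces the blastocoel and gives rise to the visceral and parietal endoderm of the yolk sacs. FGF4 from the epiblast signals to ICM cells, in which GATA6 is present early and SOX17, GATA4 and SOX7 are known to follow in that order as the PrE forms. PrE cells then carry the receptor PDGFRA, take up material by endocytosis with the adaptor DAB2, and lay down a basement membrane of laminin and type IV collagen.

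In the control embryos the 9 genes fell into different time courses, plotted below on a log scale for every library. Levels are given as FPKM, which is per length of transcript and per total of fragments. *Gata6* and *Dab2* were already high in morulae, *Gata4* was high in late two-cell embryos and in the ICM but not between them, and *Sox17*, *Sox7*, *Foxa2* and *Lama1* were near 0 before the ICM. In 2iES cells 8 of the 9 had a mean below 1 FPKM with DMSO, *Dab2* being the exception. Stage, embryo batch and library preparation cannot be told apart in these comparisons.

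**Figure D1:**
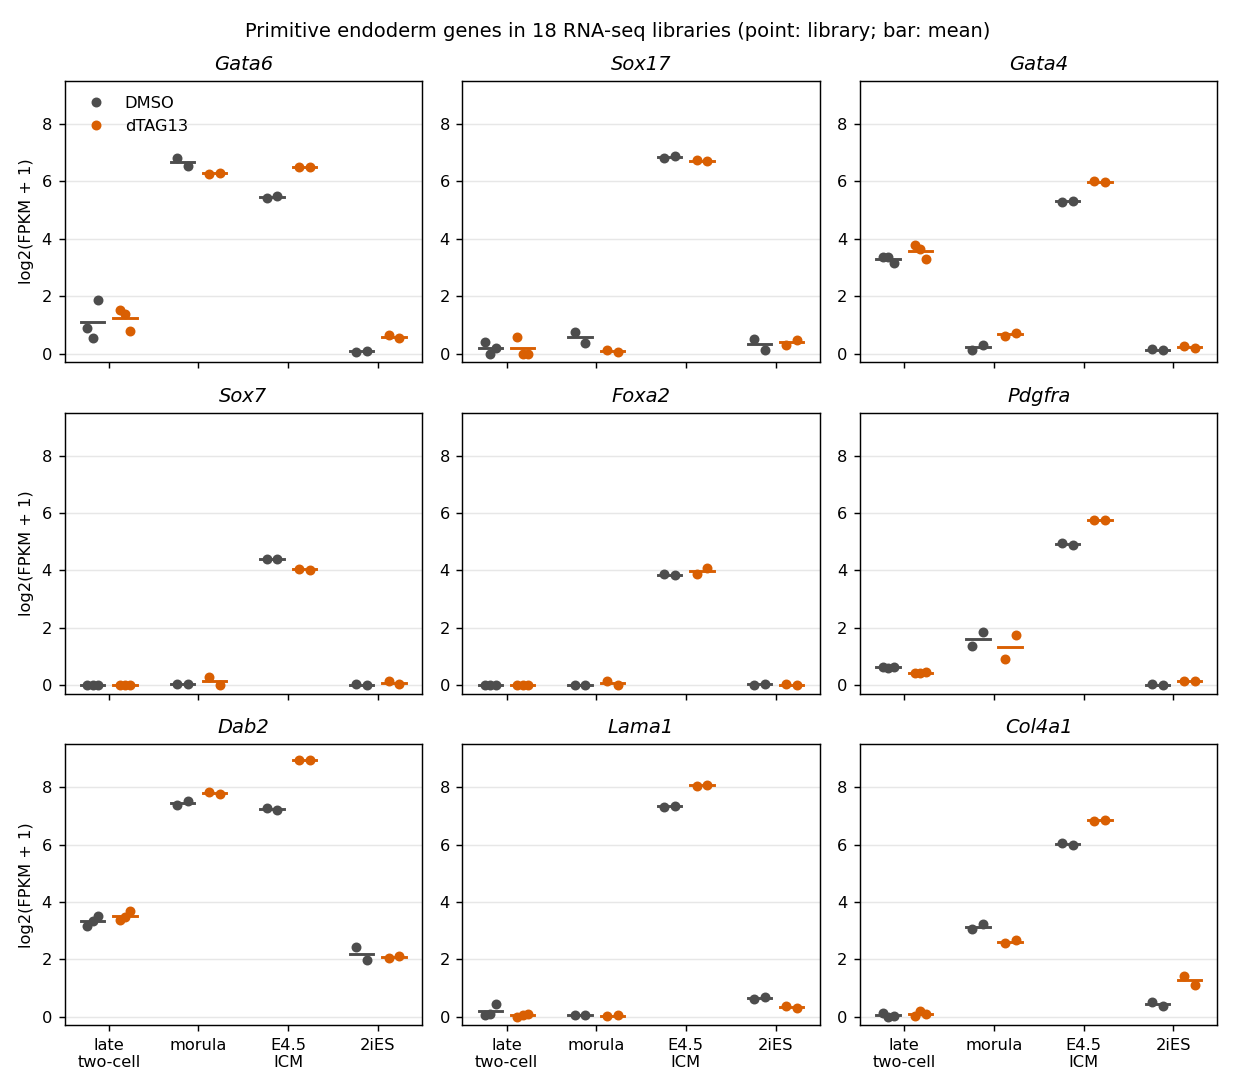
Levels of the 9 genes as log2(FPKM + 1) in each of the 18 libraries, by stage, with DMSO in grey and dTAG13 in orange; points are libraries and bars are group means. With dTAG13 in the E4.5 ICM, *Dab2* reached 489 and 490 FPKM, the highest level of any of the genes, while *Sox7* was lower than with DMSO.

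*Gata6*, a GATA factor needed for PrE fate (chromosome 18, 11052064 to 11085635, plus strand, GRCm38), was at 0.84, 0.46 and 2.67 FPKM in the late two-cell control libraries. It was at 112.6 and 92.6 FPKM in the morula controls and at 42.3 and 43.6 FPKM in the ICM controls. The 3 stages did not overlap, and the morula was the highest. *Gata6* rose from the late two-cell stage to the morula by 6.54 ± 0.38 (log2 fold change ± SE) and then fell by 1.42 on the log2 scale into the ICM (edgeR quasi-likelihood test with Benjamini-Hochberg adjustment, adjusted p = 1.97e-07 and 2.74e-04).

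*Gata4*, a second GATA factor (chr14:63198922-63271692, minus strand), was at 9.22, 9.43 and 7.93 FPKM in the late two-cell controls. It had only 2 expected counts in each morula control library and was back at 38.4 and 39.0 FPKM in the ICM controls. By the ratio of summed counts it was 91.1-fold higher in late two-cell embryos than in morulae (95% counting interval 35.5 to 335) and 453-fold higher in the ICM than in morulae (177 to 1664). Both differences also passed the edgeR test (adjusted p = 6.54e-07 and 2.83e-05), and such intervals cover counting error only.

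*Sox17*, the SRY-box factor that acts next to GATA6 (chr1:4490931-4497354, minus strand), was at 110.9 and 116.4 FPKM in the ICM controls and below 1 FPKM in all control libraries of the other stages. Of its exonic bases, 16.9% lie opposite the gene *Gm37587*, and the libraries do not keep strand, so reads of the pair cannot be fully told apart. *Sox7*, a late PrE factor (chr14:63943673-63950732, plus strand), had no counts at the late two-cell stage, 1 count in each morula control, and 20.3 and 19.9 FPKM in the ICM controls. *Foxa2*, a forkhead factor of endoderm (chr2:148042877-148046969, minus strand), had no counts in late two-cell embryos or morula controls and 13.6 and 13.2 FPKM in the ICM controls. From morula to ICM, *Sox17* rose by 7.14 ± 0.25 (adjusted p = 4.36e-05, edgeR), *Sox7* was 644-fold higher by summed counts (178 to 5320), and *Foxa2* was at least 173-fold higher when the morula group is set at 3 counts.

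*Pdgfra*, the receptor of PDGF-A (chr5:75152292-75198215, plus strand), was at 0.55, 0.50 and 0.57 FPKM, then 1.61 and 2.62 FPKM, then 30.4 and 28.3 FPKM in the controls of the 3 embryo stages. It rose at both steps, by 2.47 ± 0.39 and by 3.38 ± 0.25 (adjusted p = 2.39e-04 and 2.17e-04, edgeR). *Lama1*, the alpha chain of laminin-111 (chr17:67697259-67822647, plus strand), stayed at 0.35 FPKM or less until the morula and was at 157.1 and 162.4 FPKM in the ICM controls, where it was the most abundant of the 9. *Col4a1*, the alpha1 chain of type IV collagen (chr8:11198423-11312826, minus strand), was at 7.36 and 8.32 FPKM in the morula controls and at 65.7 and 62.9 FPKM in the ICM controls, a rise of 2.64 ± 0.11 (adjusted p = 5.41e-05, edgeR). *Dab2* (chr15:6299788-6440712, plus strand) rose by 4.73 ± 0.21 from the late two-cell stage to the morula (adjusted p = 4.59e-08), and then had 164.8 and 183.0 FPKM in morulae against 154.3 and 145.6 FPKM in ICMs, a difference that did not pass the edgeR test (0.03, 95% interval -0.24 to 0.30, adjusted p = 0.811).

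Over the 3 control comparisons, a gene was called at an adjusted p under 0.05, a fold of 2 and a mean of 1 FPKM in a group. Between the late two-cell stage and the morula, 6 of the 9 genes were tested and 5 were called, where 54.2% of the 17990 genes tested were. Between morula and ICM all 9 were tested and 8 were called, where 38.2% of 15266 were. All 9 were called lower in 2iES cells than in the ICM, where 33.5% of 15660 genes were called, 18.4% of all tested being lower. On the log2 scale the difference ran from -4.78 for *Dab2*, at 4.41 and 2.92 FPKM in 2iES controls, to -10.09 for *Pdgfra*. For *Dab2* the 13 alternatives gave -5.17 to -4.47. *Gata4*, *Gata6*, *Sox17*, *Sox7*, *Foxa2* and *Pdgfra* passed the count minimum of 10 only through the ICM libraries. They could therefore only come out lower in 2iES cells. Between morula and ICM the same holds for *Gata4*, *Sox17*, *Sox7*, *Foxa2* and *Lama1*, which could only come out higher in the ICM.

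Degradation of GABPA from 84 to 100 hpf moved most of the 9 genes in the E4.5 ICM, and it moved them unequally. *Dab2* rose 3.20-fold, and *Gata6*, *Col4a1*, *Lama1*, *Pdgfra* and *Gata4* rose by less than 2-fold. *Sox7* fell, *Sox17* fell slightly, and the test did not show a difference for *Foxa2*. In all, 6 genes rose and 2 fell at an adjusted p under 0.05, and 1 was called with the fold of 2. These counts stand beside a large background: 76.9% of the 15840 genes tested passed the adjusted p, 38.4% higher and 38.5% lower, and 25.3% were called, 12.1% higher and 13.2% lower. Their median change was 0.62 on the log2 scale, and that of all genes tested was 0.01. ICM libraries of a group differed from each other by only 1.62 and 1.69 times the median sampling noise, against 2.86 to 16.1 times in the other groups, so that small differences pass the test at this stage.

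**Figure D2:**
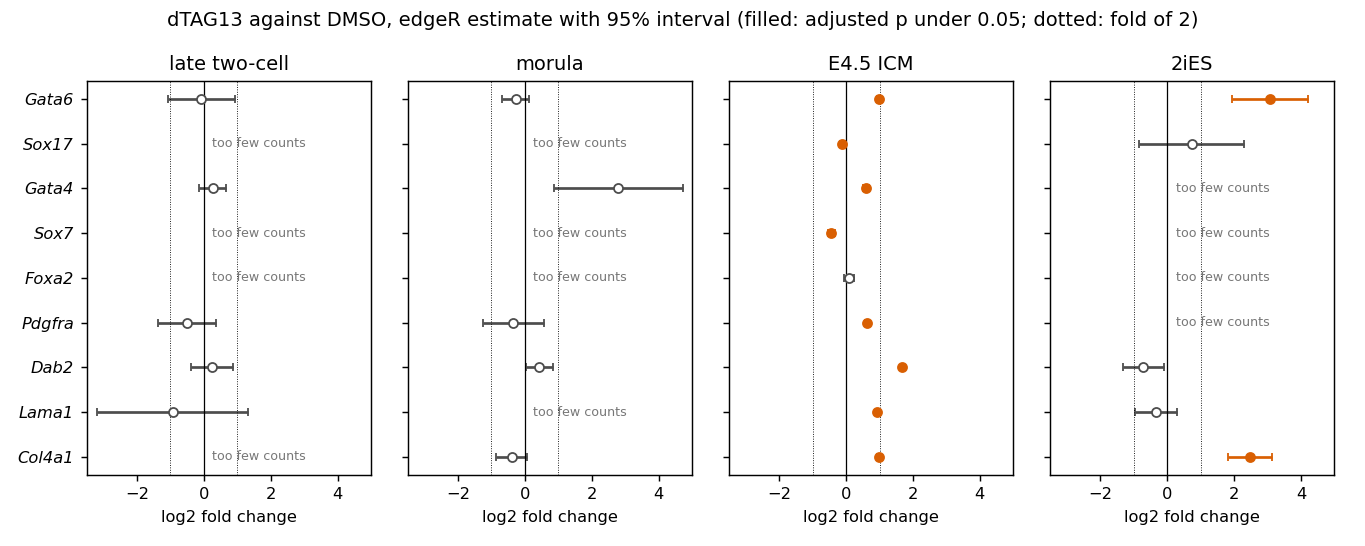
The log2 fold change of dTAG13 against DMSO for each of the 9 genes at each stage, from edgeR, with its 95% interval; filled orange points have an adjusted p under 0.05 and dotted lines mark a fold of 2. In the E4.5 ICM the estimates run from -0.44 for *Sox7* to 1.68 for *Dab2* with narrow intervals, and in 2iES cells *Gata6* and *Col4a1* are the filled points.

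*Dab2* encodes a clathrin adaptor of endocytosis that is needed for endoderm organisation. It was at 154.3 and 145.6 FPKM with DMSO and at 489.3 and 489.8 FPKM with dTAG13 in the ICM. The 2 groups were far apart and each was tight. The change was 1.68 ± 0.03 (adjusted p = 8.05e-37, edgeR), and it stayed called under the 13 alternatives, between 1.64 and 1.78. The 250 bases before each of the *Dab2* starts that RefSeq lists on GRCm38.p6 are shown because *Dab2* is the gene with the largest change. The upstream one is chr15:6299539-6299788 and the downstream one chr15:6386498-6386747, both on the plus strand, and capitals mark GATAA, the core of GATA sites, and CCGGAA, the core of ETS sites such as those of GABPA, read on either strand.
Dab2 upstream start: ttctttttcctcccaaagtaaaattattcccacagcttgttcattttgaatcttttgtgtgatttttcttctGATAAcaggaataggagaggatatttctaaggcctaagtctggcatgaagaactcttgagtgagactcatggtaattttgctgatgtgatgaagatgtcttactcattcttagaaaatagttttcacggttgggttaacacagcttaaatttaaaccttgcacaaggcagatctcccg
Dab2 downstream start: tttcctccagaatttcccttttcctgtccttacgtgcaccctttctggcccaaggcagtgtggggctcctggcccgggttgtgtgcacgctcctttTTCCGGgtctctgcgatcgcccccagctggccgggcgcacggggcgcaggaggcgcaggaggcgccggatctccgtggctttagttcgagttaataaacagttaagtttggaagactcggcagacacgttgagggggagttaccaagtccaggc

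The promoter table held 7 such windows for 4 of the 9 genes (*Foxa2*, *Pdgfra*, *Col4a1* and *Dab2*), and none was used for *Gata4*, *Gata6*, *Sox17*, *Sox7* and *Lama1*. CCGGAA was found in 2 of the 7 windows, those of the downstream *Dab2* start and of 1 *Foxa2* start, and in 12% of all 32851 windows. GATAA was found in 2 of the 7, those of the upstream *Dab2* start and of another *Foxa2* start, and in 22.6% of all. The longer CCGGAAG and AGATAAG, which contain the cores, and ACAATGG for SOX and TGTTTAC for FOXA factors were in none of the 7 windows and in 6.91%, 2.74%, 3.02% and 3.17% of all. A match is a description of these letters and not of binding.

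Among the transcription factors, *Gata6* went from 42.3 and 43.6 FPKM in the DMSO libraries to 89.3 and 88.8 FPKM in the dTAG13 libraries, a rise of 0.98 ± 0.03 (adjusted p = 1.76e-25, edgeR). *Gata4* was at 38.4 and 39.0 FPKM against 63.9 and 61.5 FPKM, a rise of 0.59 ± 0.04 (adjusted p = 3.27e-16). *Sox7* was at 20.3 and 19.9 FPKM against 15.7 and 15.3 FPKM, which is a change of -0.44 ± 0.05 (adjusted p = 3.37e-09). For these genes every dTAG13 library lay outside the range of the controls. *Sox17* was at 110.9 and 116.4 FPKM against 105.3 and 104.0 FPKM, and its small drop of 0.11 on the log2 scale passed the test (95% interval -0.18 to -0.05, adjusted p = 0.00278). Over the 13 alternatives its change ran from -0.15 to -0.011, so the size of this drop depends on the processing. *Foxa2* was at 13.6 and 13.2 FPKM against 13.9 and 15.8 FPKM and did not pass it (0.09, 95% interval -0.07 to 0.25, adjusted p = 0.318).

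The factors thus did not keep their proportions within a library. The ratio of *Sox17* to *Gata6* in FPKM stood at 2.62 and 2.67 in the DMSO libraries and at 1.18 and 1.17 in the dTAG13 libraries. *Gata4* to *Gata6* was 0.908 and 0.895 against 0.715 and 0.692. Such ratios do not depend on how libraries are scaled.

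*Pdgfra* was at 30.4 and 28.3 FPKM with DMSO and at 53.5 and 53.5 FPKM with dTAG13 (0.62 ± 0.03, adjusted p = 1.31e-19, edgeR). *Lama1* was at 157.1 and 162.4 FPKM against 265.7 and 268.3 FPKM (0.93 ± 0.02, adjusted p = 7.84e-30). *Col4a1* was at 65.7 and 62.9 FPKM against 113.5 and 115.1 FPKM (0.97 ± 0.03, adjusted p = 3.13e-28). *Gata6*, *Lama1* and *Col4a1* lay just under the fold of 2, at 1.97, 1.91 and 1.96 by counts, and the scaling decides their calls: with upper-quartile scaling all 3 were called, and with library totals *Gata6* and *Col4a1* were. In the same order, the ratios of mean FPKM were 2.07, 1.67 and 1.78.

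The order of levels changed with treatment. With DMSO it was *Lama1*, *Dab2*, *Sox17*, *Col4a1*, *Gata6*, *Gata4*, *Pdgfra*, *Sox7* and *Foxa2*, from a mean of 159.8 to 13.4 FPKM, and no 2 neighbours overlapped. With dTAG13 *Dab2* came first, *Col4a1* passed *Sox17* (114.3 against 104.6 FPKM) and the last pair, *Sox7* and *Foxa2*, overlapped. Together the 9 genes made up 633 and 631 FPKM with DMSO but 1210 and 1212 FPKM with dTAG13. Without *Dab2* the sums were 479 and 486 against 721 and 722 FPKM.

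Partners of these genes in the ICM were examined whatever their values. The chains that assemble with LAMA1 and COL4A1 rose with them: *Lamb1* by 0.95 ± 0.02, *Lamc1* by 0.77 ± 0.02 and *Col4a2* by 0.88 ± 0.03 (adjusted p = 1.04e-29, 2.35e-26 and 1.44e-24, edgeR). *Col4a2* (chr8:11312805-11449287, plus strand) lies head to head with *Col4a1*, and their 5′ ends overlap. Of the endocytic receptors, *Lrp2* (megalin) rose by 2.33 ± 0.04 and *Cubn* (cubilin) by 1.22 ± 0.03, while *Amn*, which carries cubilin to the membrane, rose by 0.28 ± 0.04. *Nid1*, which links laminin to collagen, fell by 0.21 on the log2 scale by counts (adjusted p = 8.76e-05), while its mean FPKM was 24.3 with DMSO and 27.3 with dTAG13, so its direction depends on the unit. *Pdgfa*, which encodes the ligand of PDGFRA, fell by 1.04 on the log2 scale, and so did *Fgf4* by 2.09 and *Nanog* by 1.38 (adjusted p = 1.49e-19, 1.88e-26 and 3.09e-27). The FGF receptor genes *Fgfr1* and *Fgfr2* did not pass the test (0.00, 95% interval -0.18 to 0.18, and 0.03, -0.06 to 0.12, adjusted p = 0.981 and 0.494). *Foxa1* rose from 0.10 and 0.09 to 0.47 and 0.63 FPKM, *Foxa3* did not pass the test, and *Sox18* and *Gata5* had too few counts to test.

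Of 69 further PrE genes listed by role, 64 were tested in the ICM, with a median of 0.36. At an adjusted p under 0.05, 38 rose and 16 fell, and 7 were called in each direction. Over all 15840 genes tested, 38.4% rose and 38.5% fell, and 12.1% were called higher and 13.2% lower. All 8 genes of collagen folding and secretion rose, led by the prolyl hydroxylase subunit *P4ha2* (2.30-fold). Of 11 basement membrane genes, 6 rose and 5 fell, among them fibronectin *Fn1* with a drop of 1.35 on the log2 scale. Of 13 tested genes that visceral or parietal endoderm is known to express, 10 rose, with *Cited1* at 2.38 ± 0.10, the tissue plasminogen activator *Plat* at 2.12 ± 0.05, the proteoglycan *Srgn* at 1.32 ± 0.03 and the cathepsin *Ctsz* at 1.29 ± 0.03, and 2 fell, *Apom* (-2.61 ± 0.08) and *Apoe* (-0.85). The endocytic receptors split, with 4 of 6 higher and the transferrin receptor *Tfrc* lower by 1.90 on the log2 scale. Other transcription factors (4 of 10 higher, 2 lower), signal input genes (4 of 12 higher, 4 lower) and matrix receptors (2 of 4 higher, 1 lower) had medians of 0.00, 0.06 and 0.11.

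**Figure D3:**
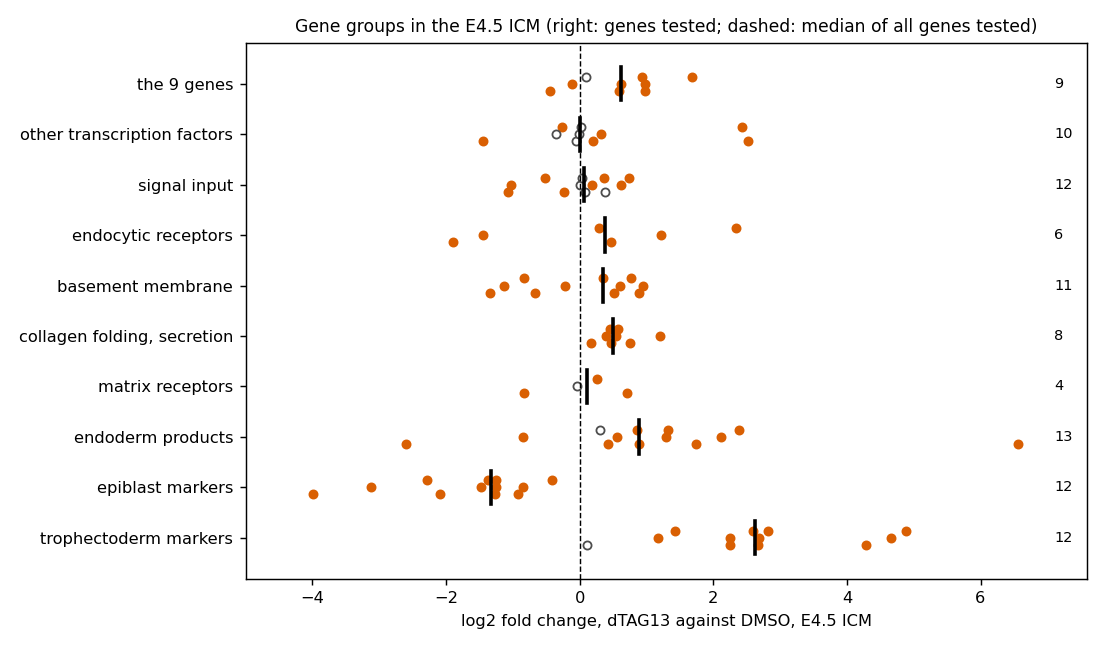
Log2 fold change of dTAG13 against DMSO in the E4.5 ICM for the tested genes of each group; orange points have an adjusted p under 0.05, open points do not, black bars are group medians and the dashed line is the median of all genes tested. The 9 genes have a median of 0.62, epiblast markers lie at -1.32 and trophectoderm markers at 2.63.

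The list of PrE genes that the study drew from public single-cell data, without the 9, holds 244 genes, all tested in the ICM. Of these, 187 rose and 35 fell at an adjusted p under 0.05, and 38 were called higher and 4 lower, with a median of 0.47. The shares over all genes tested are those given above for the ICM. The called genes with the largest changes were *Apom*, *Sfmbt2* and *Txndc12*, which fell, and *Susd3*, *Cited1*, *Ctsh*, *Lrp2* and *Stard4*, which rose by 2.15 to 2.56. The early part of that list had a median of 0.42 and the late part one of 0.57.

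Markers of the other ICM and blastocyst cell types moved at the same time. All 12 epiblast markers fell, 9 of them called, with *Prdm14* at -3.99, *Bmp4* at -3.13 and *Sox2* at -2.29, and their summed FPKM was 943 and 957 with DMSO against 399 and 393 with dTAG13. Of 13 trophectoderm markers 12 were tested and 11 rose, 10 of them called, and *Tead4* did not pass the test. Their sum was 108 and 113 FPKM with DMSO against 997 and 991 FPKM with dTAG13, with *Krt18* at 4.29 ± 0.04, *Elf5* at 4.89 ± 0.35 and *Gata3* at 2.82 ± 0.10, while *Cdx2* was at a mean of 0.485 against 2.39 FPKM and *Hand1* had no counts in 1 library of each group. Of 6 fibroblast markers 2 were tested and both fell, and their sum was 2.13 and 1.98 against 0.57 and 0.94 FPKM. The part of these cell types in the levels of the 9 genes was not tested. In bulk samples, fewer cells of a type and less RNA per cell cannot be told apart, and the same holds for more.

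**Figure D4:**
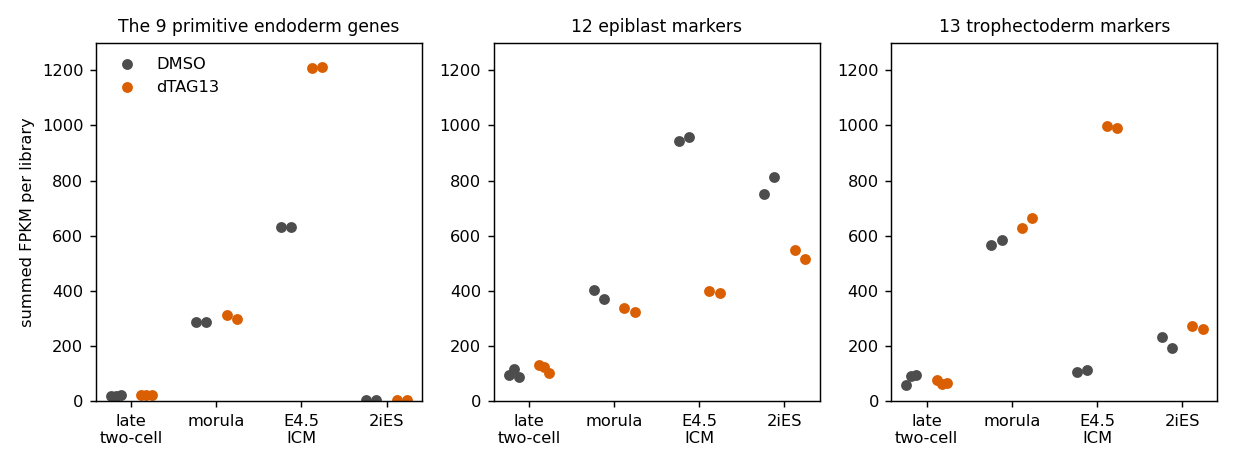
Summed FPKM per library of the 9 PrE genes, of 12 epiblast markers and of 13 trophectoderm markers, by stage, with DMSO in grey and dTAG13 in orange. In the E4.5 ICM the sums with dTAG13 lie at about 1210, 393 to 399 and 991 to 997.

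At the late two-cell stage the change of the 9 genes was not detectable at this depth. Of the 9, 5 had enough counts to test, none was called, and none had an unadjusted p under 0.05 (edgeR, and none was called by DESeq2 or limma), where 4.11% of 17421 genes were called. *Gata4* was at 12.7, 11.7 and 8.81 FPKM with dTAG13, which overlaps the controls (0.26, 95% interval -0.15 to 0.67), and *Dab2* at 9.33, 10.2 and 11.7 FPKM against 7.98, 9.17 and 10.53 FPKM. *Pdgfra* was at 0.33, 0.33 and 0.37 FPKM, below all controls, but its change of -0.50 did not pass the test (adjusted p = 0.532).

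In morulae 5 genes were tested and none was called, where 0.351% of 13667 genes were called (edgeR, and none by DESeq2 or limma). An unadjusted p under 0.05 was found for 2, and for 1854 of all 13667 genes tested. *Gata4* had 15 and 17 counts with dTAG13 against 2 and 2 with DMSO, a ratio of 6.89 by summed counts (95% counting interval 2.44 to 26.8, adjusted p = 0.204), and *Dab2* was at 229.2 and 214.0 FPKM against 164.8 and 183.0 FPKM (0.42 ± 0.19, adjusted p = 0.351). For both genes the dTAG13 libraries lay above both controls. *Sox17* went the other way, with 13 and 7 counts with DMSO against 2 and 1 with dTAG13, too few for the edgeR test, and by summed counts it was 7.74-fold higher with DMSO (95% counting interval 2.29 to 40.7). *Gata6* was at 76.4 and 77.6 FPKM with dTAG13, below both controls (-0.27, 95% interval -0.67 to 0.13), and so was *Col4a1* at 4.96 and 5.37 FPKM (-0.39, -0.86 to 0.07). Epiblast and trophectoderm sums were 403 and 370 against 338 and 323 FPKM, and 566 and 585 against 627 and 665 FPKM.

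In 2iES cells 5 genes had enough counts to test. *Col4a1* was at 0.44 and 0.30 FPKM with DMSO and at 1.71 and 1.18 FPKM with dTAG13, and it was called (2.47 ± 0.28, adjusted p = 5.43e-04, edgeR), where 28% of 15511 genes were called. With limma on log2(FPKM + 1) it was at 0.83 and not called. *Gata6* was at 0.05 and 0.06 against 0.57 and 0.45 FPKM, from 4 and 5 to 38 and 28 counts. It rose by 3.08 ± 0.48 (adjusted p = 0.00200) but stayed under 1 FPKM and so was not called. At the adjusted p alone 2 of the 9 genes rose, where 54.6% of all genes passed. Levels reached with dTAG13 were a small part of those of the ICM controls, at 1.45 against 64.3 FPKM for *Col4a1* and 0.51 against 42.9 FPKM for *Gata6*.

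*Dab2* in 2iES cells was at 326 and 208 counts with DMSO and 155 and 121 with dTAG13, a change of -0.71 (95% interval -1.31 to -0.11, adjusted p = 0.0501). Its FPKM overlapped, at 4.41 and 2.92 against 3.11 and 3.33. Without DMSO replicate 2 it was called lower, at -1.03. *Lama1* was at 0.55 and 0.63 against 0.31 and 0.23 FPKM and *Sox17* at 0.44 and 0.10 against 0.23 and 0.40 FPKM, and neither passed the test (adjusted p = 0.313 and 0.370). *Gata4*, *Sox7*, *Foxa2* and *Pdgfra* had no more than 16 counts in any 2iES library and were not tested.

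Among the partners in 2iES cells, *Col4a2* rose with *Col4a1* (2.49, from 0.07 to 0.40 FPKM), and *Cubn* (4.21 ± 0.33), *Lamb1* (1.14) and *Fgfr1* (1.22 ± 0.14) were called higher. *Nid1* fell (-0.86, from 7.58 to 3.89 FPKM, adjusted p = 0.0327, edgeR) but was not called, and *Nanog* was called lower (-1.12 ± 0.12). Of the 69 further PrE genes 54 were tested, of which 17 rose and 10 fell, and 8 were called higher and 2 lower. The lysyl hydroxylase *Plod2* (2.94 ± 0.31), *P4ha1* (1.24 ± 0.17) and *Apoe* (1.26 ± 0.15) were among those called higher. Of the 244 genes of the study's list 230 were tested, and 75 rose and 55 fell, with 38 called higher and 24 lower and a median of 0.09. *Serpine2* (3.70 ± 0.14) had the largest rise and *Tmem9b* (-2.73 ± 0.21) the largest drop among the called genes with a mean of 5 FPKM. Of all 15511 genes tested, 4117 rose and 4352 fell, with a median of 0.03. Epiblast sums were 750 and 813 against 549 and 517 FPKM, and trophectoderm sums 234 and 194 against 274 and 262 FPKM. The part of either in these results was not tested.

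Whether the effect of dTAG13 differed between stages was tested as an interaction term, which says by how much the log2 fold change in the ICM exceeds that in another stage. The 2 interactions share the ICM libraries, and the length of treatment and, for 2iES cells, the dose differ too. Against the morula 5 genes were called, where 18.3% of 16799 were: *Dab2* (1.27 ± 0.14), *Gata6* (1.27 ± 0.14) and *Col4a1* (1.38 ± 0.14) had the larger effect in the ICM (adjusted p = 3.03e-04, 2.97e-04 and 1.72e-04, edgeR). *Sox17* (2.72 ± 0.63) and *Gata4* (-2.20 ± 0.46) were also called (adjusted p = 0.00961 and 0.00614), both on few counts in morulae, and *Sox17* lost the call without morula DMSO replicate 1 (2.09). With limma the *Gata4* difference turned to 0.22 and that of *Sox17* was 0.35, neither called. *Sox17* passed the count minimum only through its ICM libraries, so its call does not establish an effect in morulae. Without morula dTAG13 replicate 2, 8 genes were called. Against 2iES cells 6 genes were called, where 21.6% of 17657 were: the effect on *Dab2* (2.37 ± 0.22) and *Lama1* (1.24 ± 0.16) was more positive in the ICM and that on *Gata6* (-2.12 ± 0.27) and *Col4a1* (-1.52 ± 0.21) more positive in 2iES cells (adjusted p = 5.88e-05, 3.03e-04, 2.79e-04 and 4.36e-04). With limma on log2(FPKM + 1), a scale on which low levels change little, the *Gata6* difference turned to 0.52. That of *Col4a1* was -0.0080, and neither was called. In the fit of all 18 libraries *Lama1* was at 1.215 and not called. *Pdgfra* and *Sox7* passed the count minimum only through their ICM libraries, so their calls do not establish an effect in 2iES cells. *Pdgfra* (-1.65 ± 0.54) and *Sox7* (-2.34 ± 0.87) were called (adjusted p = 0.0307 and 0.0474) on at most 16 counts per 2iES library, and both lost the call when most single libraries were left out, *Sox7* being at -0.27 without 2iES dTAG13 replicate 1, and with limma *Pdgfra* turned to 0.70.

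The genes whose profile was most like each of the 9 were named by Pearson's r of log2(FPKM + 1) over the 18 libraries, among 19450 genes. All points share the 4 stages, so r mostly describes the stage profile, and no p is given. *Sox7* was most like *Akr1c12* (r = 0.999) and *Foxa2* (0.997), *Foxa2* like *Aqp8* (0.999) and *Pth1r* (0.998), and *Lama1* like *Aqp8* (0.998) and *Foxa2* (0.997). *Sox17* was most like *Foxq1* (0.997) and *Foxa2* (0.996). *Col4a1* had *Acss1* (0.994) and *Col4a2* (0.992), *Pdgfra* had *Lamb1* (0.991) and *Runx1* (0.986), and *Gata4* had *Srgn* (0.988) and *Slc5a4b* (0.980). *Gata6* (*Sycn*, 0.985, and *Hmga2*, 0.984) and *Dab2* (*Emp2*, 0.982, and *Wdfy1*, 0.981) completed the list, and *Gata6* itself came next for *Dab2*, after 3 other genes, at 0.978.

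*Gabpa* messenger RNA does not check the degradation, since dTAG13 acts on the protein. It was higher with dTAG13 in each library of every stage, at 111.3, 125.0 and 90.9 against 170.1, 152.6 and 163.2 FPKM in late two-cell embryos and at 11.0 and 12.0 against 30.4 and 29.9 FPKM in the ICM.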

How the data were processed

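RNA-seq libraries were made by the authors from polyadenylated RNA with an unstranded SMART-Seq and Nextera protocol. The study used Trimmomatic for trimming, STAR for alignment to GRCm38 and RSEM for quantification per gene. The deposited tables hold RSEM expected counts, which are not normalized, and the deposited TPM and FPKM, which the authors' run of RSEM scaled for depth and length. CUT&RUN and ATAC-seq data were not analysed here.

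Expected counts were rounded and tested with edgeR 4.0.16 (quasi-likelihood, TMM, a count minimum of 10 by the filter for expressed genes, Benjamini-Hochberg) in R 4.3.3, using the libraries of the groups compared. Interactions were fitted over both stages. FPKM served for levels. DESeq2 1.42.0, limma 3.58.1 on log2(FPKM + 1), other scalings, no filter, a fit of all 18 libraries, a replicate block and leaving out each library were alternatives. The procedure was tested on simulated data. Groups came from the sample labels.

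The 9 genes, the lists and the tests were chosen with earlier results of these data known. Genes named were the 9, *Gabpa*, fixed partners, the 3 most alike profiles, and the called genes of each list with the largest changes and a mean of at least 5 FPKM (up to 8 of PrE lists, 3 of epiblast and trophectoderm lists). *P4ha2*, *Apoe* in the ICM, *Tead4*, *Cdx2* and *Hand1* were named after their values were seen. Promoter windows came from RefSeq on GRCm38.p6.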

Additional observations from a re-analysis of the deposited data

Results flagged for a closer look

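For 11 results, the effect of dTAG13 differed between stages by a test of the difference itself (an interaction term in edgeR, adjusted p under 0.05). The ICM effect minus the morula effect, on the log2 scale, was -2.20 for *Gata4*, 1.27 for *Gata6*, 2.72 for *Sox17*, 1.27 for *Dab2* and 1.38 for *Col4a1*. The ICM effect minus the 2iES effect was -2.12 for *Gata6*, -2.34 for *Sox7*, -1.65 for *Pdgfra*, 2.37 for *Dab2*, 1.24 for *Lama1* and -1.52 for *Col4a1*. Both sets use the same ICM libraries. All were called, where 18.3% of 16799 and 21.6% of 17657 genes tested were. *Sox17* against the morula and *Sox7* and *Pdgfra* against 2iES cells passed the count minimum only through their ICM libraries. With limma on log2(FPKM + 1) the sign turned for *Gata4* against the morula (0.22). Against 2iES cells it turned for *Gata6* (0.52) and *Pdgfra* (0.70), and *Col4a1* was at -0.0080. *Sox7* was at -0.27 without 2iES dTAG13 replicate 1.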

How the results depend on the processing

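Of the 9 genes, 4 were called in the ICM with upper-quartile scaling, 3 with library totals, 2 with limma and 8 at the adjusted p alone. In 2iES cells limma called 0, the adjusted p alone 2, and the test without DMSO replicate 2 called 2. For the ICM against the morula limma called 3, and against 2iES cells limma called 2 and the fit of all 18 libraries 3. Leaving out single libraries gave 1 to 2 calls in 2iES cells, 4 to 8 against the morula (8 without morula dTAG13 replicate 2) and 4 to 6 against 2iES cells, with 1 in the ICM, 0 in late two-cell embryos and morulae, and 5, 8 and 9 in the control comparisons. The signs that turned were of genes near 0 or with few counts in a stage compared, except *Pdgfra* in morulae, which had 63 to 179 counts per library. *Gata6* in late two-cell embryos became 0.045 (upper quartile), 0.14 (limma) and 0.077 (replicate block), and ran from -0.40 to 0.51 when single libraries were left out, above 0 without DMSO replicate 3 or dTAG13 replicate 3. *Pdgfra* in morulae ran from -1.28 to 0.26, above 0 without DMSO replicate 2 or dTAG13 replicate 1. *Foxa2* in the ICM ran from -0.011 to 0.18, below 0 without dTAG13 replicate 2. *Dab2* between ICM and morula controls became -0.051 (upper quartile) and -0.21 (limma), and ran from -0.024 (without morula DMSO replicate 1) to 0.12. Against the morula, limma gave 0.22 for *Gata4* and 0.057 for *Foxa2*, and leaving out single libraries gave -3.13 to 3.40 for *Sox7* and -3.57 to 0.082 for *Foxa2*, above 0 without morula dTAG13 replicate 1. Against 2iES cells limma gave 0.59 for *Gata4*, 0.52 for *Gata6* and 0.70 for *Pdgfra*, and leaving out single libraries gave -0.53 to 0.13 for *Gata4*, above 0 without 2iES DMSO replicate 2 or dTAG13 replicate 1 (0.10), and -2.34 (without 2iES DMSO replicate 2) to 3.18 for *Foxa2*. The cause was not tested.

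Replicate numbers were not used as pairs in the main test. Deviations from the group mean in libraries of the same number correlated at r of 0.052, 0.124 and 0.104 in late two-cell embryos. Between different numbers r was -0.102 to -0.001 there. For the same number r was 0.029 in morulae, -0.046 in ICMs and -0.234 in 2iES cells. With the replicate block the morula interaction called 6 of the 9 genes in place of 5, and 248 genes in place of 48 were called in morulae. Crossed pairing in 2iES cells, chosen after seeing the data, called 4430 genes against 4339, and 1 of the 9. The morula count of 48 was also 111 with DESeq2, 110 with library totals, 245 without a filter, 12 with limma, 179 with all 18 libraries, and 366, 102 and 137 without DMSO replicate 2, dTAG13 replicate 1 and dTAG13 replicate 2. The count of 3067 for the ICM against the morula fell to 2011 without ICM DMSO replicate 1 and 2039 without ICM dTAG13 replicate 2, and that of 3810 against 2iES cells to 2486 with all 18 libraries. At the adjusted p alone the counts were 1492, 12174 and 8469 in late two-cell embryos, ICMs and 2iES cells, 9417 and 10177 for the ICM against morula controls and 2iES against ICM controls, and 4890 and 7392 for the interactions. Upper-quartile scaling moved the median of all genes to 0.14, 0.11 and 0.21 in late two-cell embryos, ICMs and 2iES cells, and in 2iES cells 55.3% of called genes were then higher. Library totals moved it to 0.32 and -0.44 for the ICM against morula controls and 2iES against ICM controls, where 59.8% and 26.0% of called genes were higher. Counts were few for *Sox17*, *Sox7* and *Foxa2* in every stage but the ICM, and for *Gata4* in morulae and 2iES cells. They were also few for *Gata6* and *Pdgfra* in 2iES cells, *Lama1* in morulae and *Col4a1* in late two-cell embryos.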
